A study of Mus musculus with 6 samples.

Results

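Inside exons, 355 sites gained accessible chromatin with the histone deacetylase (HDAC) inhibitor MS-275 and were called for MS-275 alone. These MS-275-only gained exonic peaks were chosen from the 8480 peaks called for MS-275 over vehicle, out of 11800 peaks in all 6 deposited lists. A peak was kept when it overlapped no peak gained with the second inhibitor, CXD101, no peak higher with MS-275 than with CXD101, and no window reaching 5 kb upstream of a transcription start site (TSS), and when its summit, the base with the strongest enrichment, lay in an exon annotated by GENCODE M21. The choice used the MS-275 over vehicle comparison itself, so the fold enrichment, p-value and signal of these peaks describe how they were chosen and were given no further test. The 355 summits fell in 316 distinct intervals on 20 chromosomes, from 6 on chromosome 12 to 37 on chromosome 2, and MACS2 had reported 90 of them as one of several summits of a longer interval.

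ATAC-seq was done on monocytic myeloid-derived suppressor cells (M-MDSCs, CD11b+Ly-6ChiLy-6G-) sorted from liver tumors that had grown from transplanted Hepa 1-6 hepatoma cells in female C57BL/6J mice of wild-type (WT) genotype. The mice received vehicle, MS-275 or CXD101 by daily intraperitoneal injection, and each of the 3 groups gave 2 ATAC-seq libraries, which measure open DNA through transposase insertion. All groups carried the same tumor, and the inhibitors were given to the whole animal rather than to the sorted cells. The authors pooled the libraries of a group before calling peaks, so no value per library was used and none of the differences below has a replicate check. The sorted cell type could not be checked against an expression level here, since the lists hold only sites that differ between groups.

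M-MDSCs are immature monocyte-like cells that accumulate in tumors and restrain T cells and natural killer cells. Class I HDACs remove acetyl groups from histone tails, and acetylated chromatin is generally looser and easier for a transposase to enter. Exons close to a start site often lie in CpG islands, stretches rich in unmethylated CpG that are kept open at many genes, whereas coding exons and 3′ untranslated regions (UTRs) far from the start are usually covered by nucleosomes.

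The sequences of 5 coding summits are shown first, because they carry the contrast in base composition that runs through the whole set. Each window reaches 100 bp to either side of the summit and was read from the mm10 genome 5′ to 3′ on the strand of the gene, and is printed with every CpG in capitals. The windows are among the strongest coding ones and contain only coding or intron bases.
Msl3l2: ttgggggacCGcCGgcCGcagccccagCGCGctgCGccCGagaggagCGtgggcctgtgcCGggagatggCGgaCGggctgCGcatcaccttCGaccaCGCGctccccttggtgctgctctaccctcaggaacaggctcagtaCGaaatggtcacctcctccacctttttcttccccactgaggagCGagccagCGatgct
Sstr4: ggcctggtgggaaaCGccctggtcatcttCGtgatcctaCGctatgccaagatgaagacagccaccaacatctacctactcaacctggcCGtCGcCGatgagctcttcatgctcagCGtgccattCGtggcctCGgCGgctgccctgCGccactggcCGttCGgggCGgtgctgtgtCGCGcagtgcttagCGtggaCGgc
Slc6a13: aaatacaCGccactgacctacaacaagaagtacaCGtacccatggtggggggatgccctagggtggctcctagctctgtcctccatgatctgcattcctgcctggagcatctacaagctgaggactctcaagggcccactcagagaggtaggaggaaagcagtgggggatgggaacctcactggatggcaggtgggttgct
Msantd3: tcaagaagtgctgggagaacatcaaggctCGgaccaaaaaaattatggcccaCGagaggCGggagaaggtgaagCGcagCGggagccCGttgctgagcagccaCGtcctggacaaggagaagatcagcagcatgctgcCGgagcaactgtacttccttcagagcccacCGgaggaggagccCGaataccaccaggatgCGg
Rtn4rl2: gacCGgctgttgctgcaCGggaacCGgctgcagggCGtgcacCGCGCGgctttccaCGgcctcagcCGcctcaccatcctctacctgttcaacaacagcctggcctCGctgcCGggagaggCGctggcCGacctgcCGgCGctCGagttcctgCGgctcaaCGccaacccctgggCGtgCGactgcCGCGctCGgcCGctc
Msl3l2, a relative of the dosage compensation gene Msl3 (chr10:56115478-56115678, plus strand, exon 2 of 2), and Sstr4, the somatostatin receptor 4 gene (chr2:148395642-148395842, plus strand, its single exon), had summits 663 and 398 bp downstream of a TSS, and each window held 18 CpGs. Slc6a13, a GABA transporter gene (chr6:121336839-121337039, plus strand), had its summit 36157 bp from the closest upstream TSS. Its window crossed a splice junction in exon 14 of 15, with 147 coding bases, and held 2 CpGs. Distance and CpG content did not always go together. Msantd3 (chr4:48552621-48552821, plus strand) and Rtn4rl2, a Nogo receptor relative (chr2:84872393-84872593, minus strand), lay 12175 and 13983 bp downstream of a TSS but held 11 and 24 CpGs. The windows had a GC content of 67.2% in Msl3l2, 63.2% in Sstr4, 56.2% in Slc6a13, 58.7% in Msantd3 and 71.6% in Rtn4rl2.

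The fold enrichment at these exonic sites was moderate, and at most of them the vehicle level was above the genome background. The median fold enrichment was 2.65, with quartiles of 2.16 and 3.26 and a range of 1.53 to 7.56. Counted in sequence tags at the summit and scaled to the depth of the vehicle pool, the median was 48.1 tags with MS-275 over a vehicle level of 17.8. Here the vehicle level is the largest of the local vehicle signal and the genome background of 5.84 tags, as the peak caller uses it. The local signal is also averaged over windows wider than the summit. A high level can therefore come from vehicle reads nearby and does not show signal at the summit itself. In 252 of the 355 sites (71.0%, 95% Wilson interval 66.1 to 75.5%) the vehicle level was at least 2 times the background, and in only 12 did it equal the background. These intervals cover counting error only. Those at the background included 3 summits in the lincRNA gene Gm17619 and 1 in Id4, an inhibitor of DNA binding. At the other end, Gbe1, the glycogen branching enzyme gene, had the highest signal, with 196 tags over 107 in coding sequence 112 bp from a TSS and a fold of only 1.82.

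**Figure D1:**
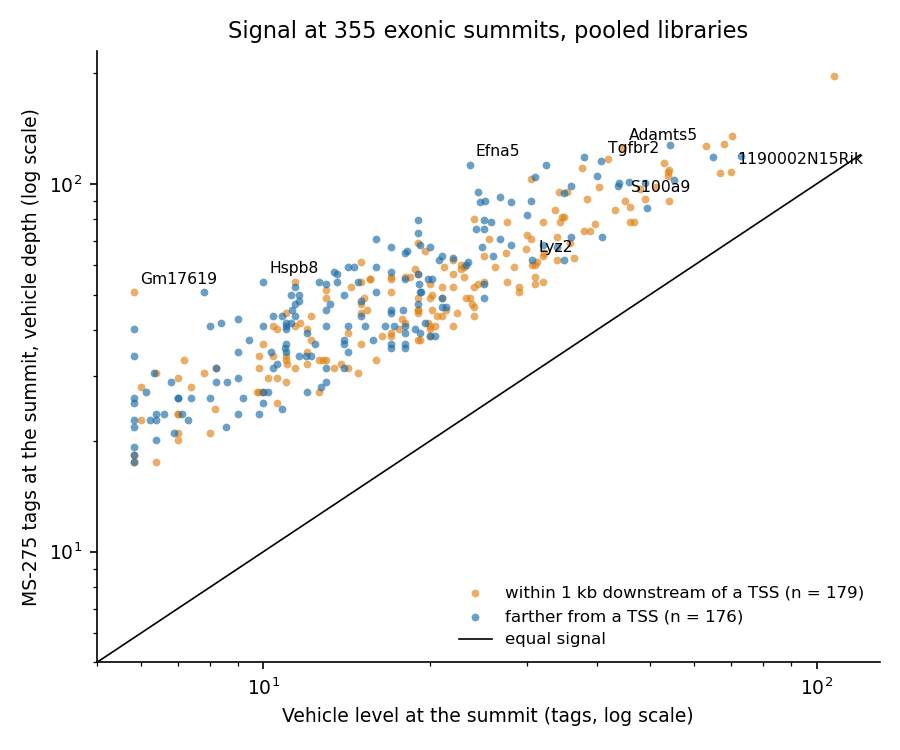
Signal at each of the 355 summits in the pooled MS-275 libraries, in tags scaled to the vehicle depth, against the vehicle level, both on log scales. Orange points are the 179 summits within 1 kb downstream of a TSS and blue points the 176 others. The line marks tags equal to the vehicle level, which is a local level and not a count at the summit alone. All points lie above the line because the peaks were chosen for a gain, and the TSS-near points reach the highest vehicle levels while sitting nearer to the line.

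Coding exons held the largest number of summits, and 5′ UTRs held the most for their length. By the part of the exon under the summit, 115 (32.4%, 95% Wilson interval 27.7 to 37.4%) were in coding sequence, 81 (22.8%, 18.8 to 27.5%) in exons of noncoding genes, 59 (16.6%, 13.1 to 20.8%) in 3′ UTRs, 51 (14.4%, 11.1 to 18.4%) in 5′ UTRs, 41 (11.5%, 8.63 to 15.3%) in other transcripts of protein-coding genes and 8 (2.25%, 1.15 to 4.38%) in pseudogenes. Of the exonic bases that lay outside the upstream windows and so could hold a summit, 5′ UTRs made up 2.77%, 3′ UTRs 30.1% and coding sequence 28.1%. The interval for 5′ UTRs lay wholly above their share of bases and that for 3′ UTRs wholly below. These intervals count summits of 1 peak interval as separate and so are too narrow. With 1 summit per peak interval the shares were 15.5% in 5′ UTRs and 16.5% in 3′ UTRs. Per megabase this was 20.2 summits in 5′ UTRs, 5.25 in exons of noncoding genes, 4.49 in coding sequence, 3.33 in other transcripts of protein-coding genes, 2.16 in 3′ UTRs and 1.03 in pseudogenes. The ordering did not carry over to the fold enrichment. The median fold was lowest in 5′ UTRs, at 2.31, and in coding sequence, at 2.37, and higher in 3′ UTRs, at 2.96, and in noncoding genes, at 3.02.

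**Figure D2:**
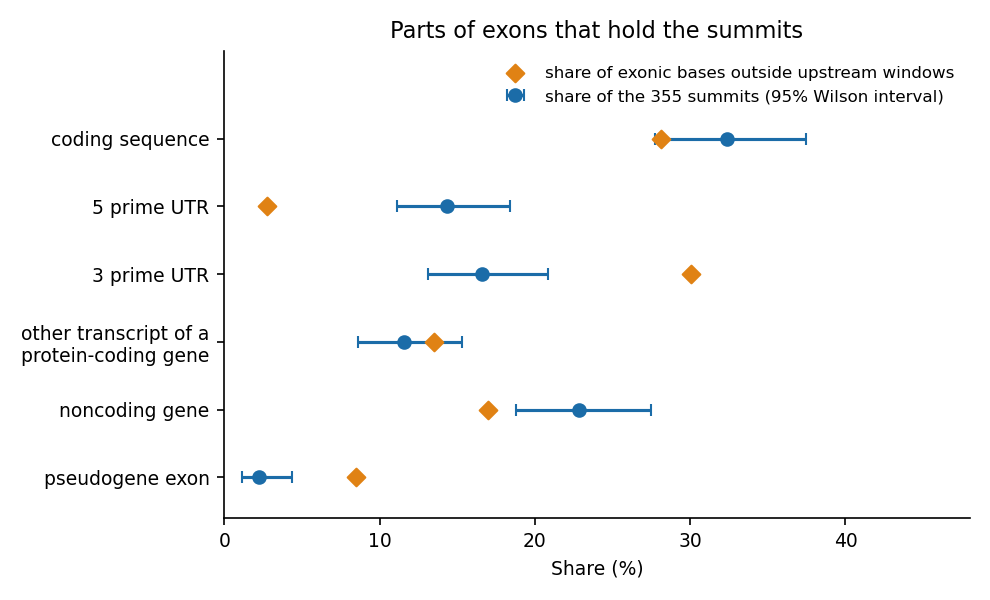
Share of the 355 summits in each part of an exon (blue points, with 95% Wilson intervals) beside the share of exonic bases outside the upstream windows (orange diamonds), in percent. 5′ UTRs held 14.4% of the summits on 2.77% of the bases, and 3′ UTRs 16.6% on 30.1%.

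By position along the transcript, 113 summits were in a first exon, 42 in an internal exon, 119 in a last exon and 81 in a single-exon transcript. The exons with a summit had a median length of 1348 bp, and 244 peaks (68.7%) lay wholly within exonic sequence. Last exons had a median length of 2129 bp and internal exons one of 240 bp. The internal exons included Cyren, a regulator of DNA end joining, where exon 3 of 4 held the strongest coding summit (chr6:34875437-34875639), with 118 tags over 38 and a fold of 3.05. They also included Myb, a transcription factor of blood progenitors, with 30.6 tags over 6.40 and a fold of 4.27 at a summit 177 bp downstream of one of its start sites.

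About as many summits lay just downstream of a start site as lay farther away. In all, 179 (50.4%, 45.2 to 55.6%) were within 1 kb downstream of a TSS, where 25% of the exonic bases outside the windows lie, which came to 7.87 summits per megabase against 2.58 in exons farther away. The rule removed every peak that touched the TSS or the 5 kb before it, so peaks that straddle a start site are missing here and the closest summit was 30 bp downstream. The median distance to the nearest TSS in either direction was 955 bp, and 72 summits lay between 100 and 250 bp downstream. Nearly all 5′ UTR summits (50 of 51, 98%) and 66 of the 115 coding summits (57.4%) were TSS-near, but only 6 of the 59 in 3′ UTRs (10.2%). Farther out, 35 summits lay 10000 to 50000 bp and 11 more than 50000 bp downstream. Signal and fold ran in opposite directions between these groups. TSS-near summits had a median of 50.7 tags over a vehicle level of 20 and a fold of 2.39, while the others had 45.5 over 14.7 and a fold of 2.92. The lower fold near start sites went with a higher vehicle level, so it does not show that fewer tags were added there. The vehicle level was at least 2 times the background in 78.2% (71.6 to 83.6%) of the TSS-near summits and in 63.6% (56.3 to 70.4%) of the others.

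**Figure D3:**
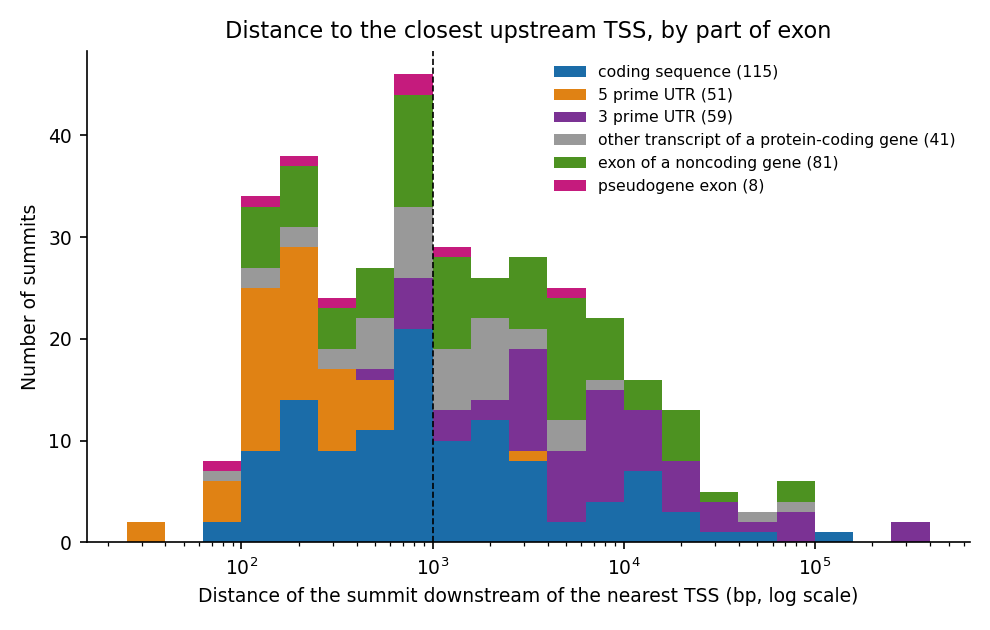
Number of summits by distance downstream of the closest upstream TSS (bp, log scale), stacked by the part of the exon, with the dashed line at 1 kb. The 5′ UTR and many coding summits lie left of the line, and the 3′ UTR summits mostly right of it.

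Base composition, which the choice of peaks did not use, split the exonic sites in a similar way. Within 100 bp of the summit the median GC content was 54.2% and the median CpG ratio, the CpG count divided by that expected from the C and G content, was 0.368. Windows were called CpG-rich when this ratio was above 0.6 and GC above 50%, and 113 of 355 were (31.8%, 27.2 to 36.8%), against 5.18% of windows at the midpoints of the 188962 exons outside the upstream windows and 1.41% of windows shifted from the summits by 10 kb. Neither comparison set was matched to the summits by distance to a TSS, and the shifted windows were not restricted to exons. The CpG-rich share was 50.3% (43 to 57.5%) for TSS-near summits and 13.1% (8.87 to 18.8%) for the others. Coding summits were the most CpG-rich, with 61.7% (52.6 to 70.1%), a median GC of 64.7% and a CpG ratio of 0.705. In 3′ UTRs 3.39% were CpG-rich and the ratio was 0.179. The CpG-rich windows had the smaller folds, with a median of 2.28 (quartiles 1.98 and 2.65, at most 3.84) and a vehicle level of 20. In the other 242 the median fold was 2.85 (quartiles 2.38 and 3.44) and the vehicle level 15.6. The tags gained over the vehicle level were closer, with medians of 28.2 in the CpG-rich windows and 30.7 in the others. Of the 113, 90 (79.6%) were TSS-near and 103 (91.2%) were in protein-coding genes. GC content can alter how well a fragment is amplified and mapped, and its part in these folds was not tested.

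**Figure D4:**
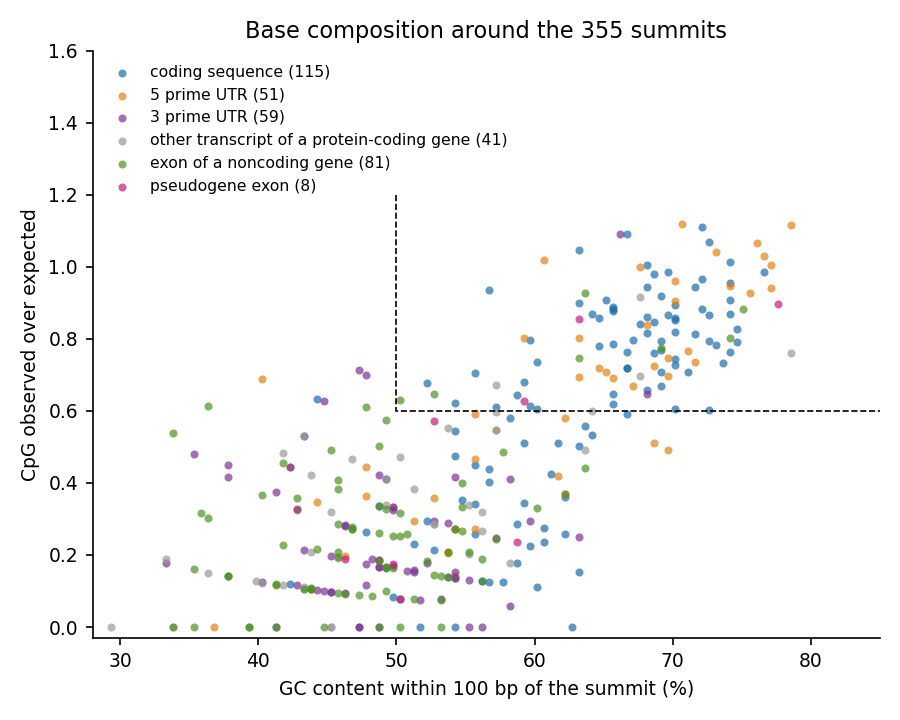
GC content (%) against the CpG ratio within 100 bp of each of the 355 summits, coloured by the part of the exon. The 113 CpG-rich windows lie in the upper right area bounded by dashed lines, and 71 of them are coding; the 3′ UTR and noncoding windows gather at low CpG.

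Of 8 short motifs searched on both strands, the GC box was the one whose share stood above that of exons in general. The GC box (GGGCGGG), which Sp and Klf factors bind, was in 24 windows (6.76%, 4.58 to 9.86%), against 2.03% of the exon midpoints and 1.69% of the shifted windows. It was in 9.50% of the TSS-near windows, 3.98% of the others and 17.6% (9.57 to 30.3%) of those in 5′ UTRs. Coding windows, which had the largest CpG-rich share, held it in 6.96% (3.57 to 13.1%), so it did not follow CpG content across exon parts. Its own letters include a CpG, so its share is not separate from base composition. The midpoints and shifted windows were not matched to the summits by distance to a TSS. The myeloid motifs were no more frequent than in exons in general. PU.1 (GAGGAAG), the master factor of myeloid cells, was in 7.61% against 8.16%, RUNX (TGTGGT) in 12.1% against 14.3% and C/EBP (TTGCNNAA) in 8.45% against 8.37%. AP-1 (TGACTCA on either strand) was in 1.69% (0.777 to 3.64%) against 3.02%, ETS (CCGGAAG) in 2.54% against 1.77%, the E-box (CACGTG) in 2.82% against 2.84% and the letters AGATAAG of the GATA site in 2.82% against 2.25%. A match of letters is not a bound site.

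Beside the other MS-275-only gains, the exonic sites had a median fold near that of upstream-window peaks and a CpG content nearer to theirs than to that of intronic or intergenic peaks. The 2128 peaks in upstream windows had a median fold of 2.70, the 2460 intronic peaks 2.91 and the 1786 intergenic peaks 3.06. Folds of at least 4 were found at 21 exonic sites (5.92%), 8.27% of upstream-window peaks, 12.6% of intronic and 15.6% of intergenic peaks. CpG-rich windows made up 26.2% (24.4 to 28.1%) in upstream windows, 3.90% (3.21 to 4.74%) in introns and 1.12% (0.726 to 1.72%) between genes, and the GC box was in 11.1%, 2.52% and 2.18%. Windows with over 50% of their bases in repeats, of which the reads map less surely, were 2.54% (1.34 to 4.75%) of the exonic sites and 9.67% (8.57 to 10.9%) of the intronic ones. Per megabase open to a call, exons held 3.90 peaks, introns 2.68 and intergenic DNA 1.49, and exons held 7.72% (6.98 to 8.52%) of the peaks outside upstream windows on 4.12% of the bases. Beyond 1 kb downstream of a TSS the exonic density was 2.58. The intronic 2.68 includes bases within 1 kb of a TSS, so these densities are not over like sets of bases.

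**Figure D5:**
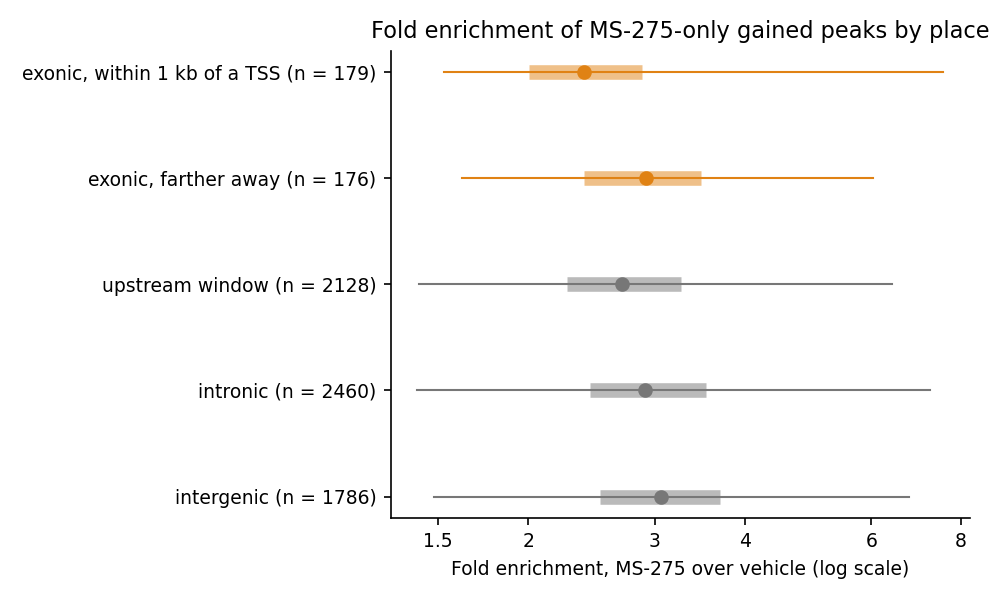
Fold enrichment of MS-275 over vehicle (log scale) for MS-275-only gained peaks by place. Dots are medians, thick bars the quartiles and thin lines the full range; TSS-near exonic peaks have the lowest median, 2.39, and intergenic peaks the highest, 3.06.

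The strongest exonic peak by p-value was in the 3′ UTR of Efna5, which encodes ephrin-A5, a membrane ligand of Eph receptors in cell repulsion. Its last exon, 5 of 5, held 2 separate peaks. The first (chr17:62604595-62604826) had 113 tags over 23.6, a fold of 4.63 and a −log10 p-value of 39.4, and the second (chr17:62605015-62605222) had 42 tags over 8.40 and a fold of 4.57. The summits lay 276454 and 276046 bp downstream of the TSS, at the far end of the gene, and the gene also had a gained intronic and a gained upstream-window peak. The next strongest exonic peak, in Gm17619, had a −log10 p-value of 29.6.

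The other leading 3′ UTR peaks also lay in last exons, in genes of unrelated function. Krt83, a hair keratin gene, had 95.3 tags over 24.4 and a fold of 3.79. St3gal1, a sialyltransferase gene, carried 2 summits in 1 interval (chr15:67102995-67103708), with 89.2 tags over 24.6 and 105 over 40. Pwwp2b, a chromatin reader gene, had 70.8 tags over 16 and a fold of 4.22. The largest folds of a coding gene were in Hspb8, a small heat shock protein of chaperone-assisted autophagy. One interval in its last exon (chr5:116408855-116409554) crossed the stop codon, with a coding summit at 50.7 tags over 7.80 and a fold of 5.88 and a 3′ UTR summit at 54.2 over 10 and a fold of 5.02. Outside the rule for named genes, and picked after their values were seen, the 3′ UTRs of Tgfbr2, the TGF-β type II receptor, and Cebpd, a C/EBP transcription factor of myeloid inflammation, had 115 tags over 40.8 (fold 2.79) and 90.1 over 30.4 (fold 2.90).

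The coding and 5′ UTR peaks were headed by genes of varied function. After Cyren and Hspb8, the leading coding summits included those of Msl3l2 (110 tags over 37.6, fold 2.88) and Sstr4 (80.4 over 24, fold 3.26), whose sequences are given above. In 5′ UTRs the strongest was Adamts5 (chr16:85901160-85901389), an aggrecan-cleaving protease gene, with 125 tags over 44.6 and a fold of 2.76, and a second summit lay in the coding part of the same first exon with a fold of 2.12. Tnfsf8, the CD30 ligand gene, had 55.1 over 15.6 (fold 3.38), Bcl2l14, a BCL-2 relative, 44.6 over 11 (fold 3.80), Abhd6, a monoacylglycerol lipase gene, 49 over 13 (fold 3.57), and Kalrn, a guanine nucleotide exchange factor gene, 56 over 17 (fold 3.16). Each of these 4 lay 95 to 170 bp downstream of a TSS. Among other transcripts of coding genes, Dcbld1 had 104 tags over 31 (fold 3.28), Glrx, the glutaredoxin gene, 90.1 over 25.2 (fold 3.48), Epb41l3, a membrane skeleton gene, 54.2 over 11.4 (fold 4.45), Nup210, a nuclear pore gene, 95.3 over 34.2 (fold 2.74), and Dgkg, a diacylglycerol kinase gene, 78.7 over 25.8 (fold 2.97).

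Genes without a protein product accounted for 10 of the 21 folds of at least 4. The largest of all was in the lincRNA gene Gm17619 (chr2:170192644-170193935), where 1 interval of its last exon had 3 summits of 50.7, 34.1 and 18.4 tags, each over the background level of 5.84, and folds of 7.56, 5.13 and 2.83. The upstream window of Gm17619 was also overlapped by gained peaks with 3 summits, all shared with the CXD101 or the direct list. The lincRNA gene Gm20342 held 4 summits in 3 intervals of its single exon, with 79.6 tags over 19 (fold 4.03), 89.2 over 28 (fold 3.11), 65.6 over 18.2 (fold 3.47) and 39.3 over 12 (fold 3.10). Gm37772 had 113 tags over 32.4 (fold 3.41) and Gm47921 had 103 over 30.4 (fold 3.32). By gene type, 36 summits were in 29 lincRNA genes, 28 in 20 genes listed as needing experimental evidence (TEC) and 12 in 10 antisense genes. In pseudogenes the folds ran from 1.90 to 3.39, and Gm20702 was the strongest, with 55.1 tags over 15.6. Reads of pseudogenes and of their parent genes can be hard to place, so these 8 sites are uncertain.

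Each summit was given to 1 gene for counting, which gave 283 genes, of which 214 were protein-coding. Counting every gene with a summit in any of its exons, 293 genes had one, or 0.544% of the 53843 annotated genes, and among protein-coding genes 218 of 21755 did, or 1.00%. The summits of 11 peaks lay in exons of more than 1 gene. Several summits fell in 55 genes, 3 or more in 14 and several separate intervals in 28. Dgkg, Gm20342 and Lrrn4 had 4 each. In Lrrn4, a leucine-rich repeat membrane protein gene, 3 summits were coding and 1 was in the 3′ UTR, with folds from 1.84 to 2.93, and in Plxna2, a semaphorin receptor gene, 3 summits of 1 interval in and beside the first exon had folds of 1.93 to 2.48. Pgr, the progesterone receptor gene, had 3 in its first coding exon with folds of 2.07 to 2.30, Calhm6, a channel gene of myeloid cells, 3 with folds of 1.72 to 2.03, and Pde6h, a phosphodiesterase subunit gene, 3 in its 3′ UTR with folds of 1.96 to 3.34. Summits of 1 interval are neighbours in the same signal and are not separate observations.

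Among the lists of related genes with more than 3 genes holding a peak, the shares were highest for guidance and developmental genes, beside 1.00% of all protein-coding genes. Lists with fewer such genes were left out of this ranking. Some of them had shares above the developmental one, such as 5.13% for synaptic genes (2 of 39) and for leukocyte adhesion genes (2 of 39). Of 51 semaphorin, plexin, ephrin and Eph genes, 4 had a peak (7.84%), namely Efna5, Plxna2, Plxnd1 (63.8 tags over 32, fold 1.96) and Sema4f (41.1 over 16.6, fold 2.39). Of the 192 genes in the homeobox and developmental transcription factor list, 7 did (3.65%). This list does not hold all genes of that kind, as Otx1 and Dmrt3 had an exonic peak and were not in it. Sox4 had 90.9 tags over 38.4 (fold 2.33), Sox12 41.1 over 11.4 (fold 3.39), Sox18 47.2 over 15 (fold 3.01), Foxd1 53.3 over 20 (fold 2.59), Nkx6-1 33.2 over 13 (fold 2.44), Foxc1 28.9 over 11 (fold 2.49) and Foxo1 41.1 over 20 (fold 2.0). All 7 had a summit within 1 kb downstream of a TSS. The counts are small, the lists were chosen with earlier results of these data known, and their exonic lengths differ, with medians of 6855 bp in the guidance list, 3132 bp in the developmental list and 3527 bp over all protein-coding genes.

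Of the myeloid and other marker lists, each short, several held 1 gene with an exonic peak, and single genes make these shares coarse beside the 1.00% of all protein-coding genes. S100a9, a calprotectin subunit abundant in MDSCs and neutrophils, was the 1 gene of 27 MDSC effectors (3.70%) and of 8 neutrophil markers (12.5%), with a 5′ UTR summit 34 bp from the TSS at 90.1 tags over 45 and a fold of 1.98. Lyz2, the macrophage and monocyte lysozyme gene, was the 1 of 10 monocyte markers (10%), with 62.1 tags over 30.6 in its 3′ UTR and a fold of 2.0. The Lyz2 gene also held 2 gained peaks shared with the CXD101 or the direct list. Cd3d, a T cell receptor subunit gene, was the 1 of 14 lymphocyte markers (7.14%), with 90.9 over 49 in its 3′ UTR and a fold of 1.84. The other markers of these lists, and all 8 macrophage and 8 hepatocyte and erythroid markers, had no exonic peak, and the part of other cell types in the results was not tested. Selplg and Itga6, of 39 genes for leukocyte adhesion (5.13%), had folds of 2.70 and 1.94, Tapbpl, of 47 antigen presentation genes, had 2.12, Maf, of 16 AP-1 family genes, 2.50 and Bcl2, of 30 cell cycle and apoptosis genes, 3.01.

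Several lists held no exonic peak, but at the 1.00% of all protein-coding genes lists of this size would hold few, and these counts are not read as a difference. There were 0 among 32 genes of class I HDACs and their complexes, 19 of acetyltransferases and acetyl readers, 39 of histone and DNA methylation enzymes, 83 histone genes, 77 Nedd4 family and Trim ubiquitin ligases, 57 chemokine and chemokine receptor genes, 32 interferon genes, 216 channel and neurotransmitter receptor genes and 100 motor protein genes. In the larger families the share was near that of all genes, with 5 of 487 zinc finger genes (1.03%) and 6 of 385 solute carrier genes (1.56%). The zinc finger genes were Zbtb10, Zfp697, Zfp804a, Zfp831 and Zic5, with folds from 1.91 to 3.59, and Slc6a13 led the solute carriers with 64.7 tags over 18.1 and a fold of 3.45. Further lists had 2 of 101 cadherin genes (Celsr1 and Pcdhac2), 1 of 56 collagen and laminin genes (Lama5, 54.2 over 15, fold 3.45) and 2 of 39 synaptic genes (Syt3 and Unc13a).

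Of the 283 genes with an exonic peak, 150 (53.0%) had no gained peak in an upstream window, no MS-275-only peak in an intron and no shared peak, and 30 of these 150 held more than 1 exonic summit. An upstream-window peak gained with MS-275 was present for 73 (25.8%), beside 3.67% of all annotated genes and 5.97% of protein-coding genes. An intronic MS-275-only peak was present in 80 (28.3%), beside 2.56% of all annotated and 5.13% of protein-coding genes. A peak shared with the CXD101 or the direct list was present in 37 (13.1%), beside 1.30% of all annotated and 2.50% of protein-coding genes. Since these peaks come from the same comparison, they are given as a description. In 1 of these genes, Dop1b, a Golgi-to-endosome traffic gene, a coding gain of 49 tags over 21 (fold 2.27) stood together with a peak lost with MS-275 and a peak lost with CXD101.

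That a site was called for MS-275 alone does not measure how CXD101 acted there. The CXD101 list stopped at a −log10 p-value of 4.50, above the 3.79 of the MS-275 list, and 31 of the 355 sites (8.73%, 6.22 to 12.1%) lay below the CXD101 limit, so that the same strength of evidence would not have been listed for CXD101. At the vehicle levels seen here and at the vehicle depth, a median of 37 tags (quartiles 27 and 47.5) would have been needed for a CXD101 call. This corresponds to a median of 66.1% of the gain with MS-275 (quartiles 50.5 and 82.8%), and 268 sites (75.5%) would have needed over 50% of it. Strong sites needed a smaller part of the gain, with 24.0% for the first Efna5 peak and 27.1% for the highest Gm17619 summit, and 64.4% for S100a9 and 77.5% for Lyz2. No value of CXD101 signal below its limit was used, so how far any gain with CXD101 stayed below the level needed for a call is not known from these lists. By the rule, none of the 355 sites overlapped a peak called higher with MS-275 than with CXD101, so no difference between the inhibitors was called at them. That direct list stopped at 3.88, and 7 sites had a score below this. Their scores are for MS-275 over vehicle and not over CXD101.

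At the edges of the rule, the sites with the least evidence were Lrrn4 (fold 1.84, −log10 p-value 3.79), Btbd11 (fold 1.79, 3.80) and the noncoding Gm45153 (fold 2.0, 3.80). Just outside, 7 MS-275-only peaks had a summit within 10 bp of an exon but in an intron, and the strongest were Samsn1 (4 bp, fold 3.64, 36.4), Pate2 and Pate1 (7 bp, fold 4.09, 23.4) and Ptprr (1 bp, fold 3.14, 13.7). Reads were not shifted to the transposase cut site, so the summit base is approximate, by an amount that was not measured.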

How the data were processed

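ATAC-seq was done on 6 libraries, 2 in each of 3 groups, assigned by their treatment labels. The submitters' processing notes name Bowtie2, the mm10 genome and MACS2 2.2.7.1, and the methods give a shift of 0, so summits were not moved to the transposase cut site. The authors deposited 6 lists of peaks called on pooled libraries, each with a linear fold enrichment, a −log10 p-value and a −log10 q-value at the summit. The deposited fold is a ratio of pileups, each with 1 added. Depth per library is not in the lists; the MS-275 pool was 1.144 times deeper than the vehicle pool, and its tags were scaled by 0.87437.

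From there, tags and vehicle levels were solved from fold and p-value (73 of 8480 peaks had several solutions, 4 among the exonic ones). In artificial data made with the same formula and with assumed levels, folds and scaling, 100% of 1389 peaks were recovered. This checks the solving step only and not what the vehicle level stands for. Overlap needed 1 base. Upstream windows ran 5 kb before any GENCODE M21 transcript start and included it. Exon parts were ranked coding, 5′ UTR, 3′ UTR, other transcripts, noncoding, pseudogene. Sequence was read within 100 bp of summits in the RefSeq copy of mm10. Shares have 95% Wilson intervals. Named genes were the 10 strongest, the 5 strongest per exon part, genes with several peaks, up to 5 per gene list, and the 3 peaks nearest each side of the rule. Members and lists were chosen with earlier results of these data known. Alternatives covered thresholds, overlap, start sites, annotation and window size. Python 3.11.15 with pandas 2.3.3, pysam 0.24.0 and SciPy 1.17.1 was used. Some items that these rules select are not reported here.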

Additional observations from a re-analysis of the deposited data

How the results depend on the processing

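No paired analysis was possible because every peak was called on pooled libraries, and leaving out each replicate could not be run for the same reason. Of 221 values under 12 alternatives, 176 stayed within the counting interval of the reported value (or within 1.5 times a count) and 45 moved. Moves by construction came with stricter limits. At q-values under 0.01 and under 0.001 the share below the CXD101 limit was 0, and at the second the median fold was 2.85. Keeping folds of at least 2 gave a median fold of 2.79 and a share below the limit of 5.39%, and 1 summit per interval gave a share of 6.13%. With gene starts in place of all transcript starts there were 601 summits in 512 genes, 29.3% in 5′ UTRs, 10.3% in 3′ UTRs and 16.8% in noncoding genes, with a median GC of 57.7%, a CpG ratio of 0.493 and the GC box in 11.1%. With starts of protein-coding genes only, 28.1% were in noncoding genes, 36.8% were TSS-near and the median distance was 3018 bp. Adding 1 kb downstream to the window left 163 summits in 128 genes and removed the TSS-near ones (0%), with 0.613% in 5′ UTRs and 31.9% in 3′ UTRs, a median fold of 2.90, a distance of 4885 bp, 6.13% below the limit, a GC of 49.8%, a CpG ratio of 0.235, and ETS in 0.613%, the GC box in 3.68% and C/EBP in 12.3%. Basic transcripts left 0% in other transcripts. Protein-coding exons alone left 0% in noncoding genes, 43.2% coding, 19.2% in 5′ UTRs, 22.2% in 3′ UTRs and 15.4% in other transcripts, with a median fold of 2.52, a GC of 57.2% and a CpG ratio of 0.466. Without the added 1 the median fold was 2.76. Within 50 bp of the summit PU.1 was in 3.66%, the GC box in 2.82%, GATA in 0.845%, RUNX in 5.07% and C/EBP in 5.92%, as shorter windows hold fewer matches. Each group is 1 pooled value, so counting error is covered and variation between animals is not.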
